A study of Homo sapiens with 6 samples.

Results

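The genes described here are those of the mitochondrial ribosomal proteins, taken as every gene that the deposited annotation calls protein coding and that has an MRPL or MRPS symbol followed by a number. They were 78 of the 58676 genes listed and of the 19922 protein-coding genes listed. The 49 MRPL genes encode proteins of the large subunit. Of the 29 MRPS genes, 26 encode proteins of the small subunit, MRPS30 and MRPS18A encode proteins that sit in the large subunit, and MRPS36, now also called KGD4, encodes a subunit of the alpha-ketoglutarate dehydrogenase complex. The subunits are therefore counted as 51 large and 26 small, with MRPS36 apart.

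The mitochondrial ribosome, or mitoribosome, translates the few messenger RNAs that are encoded by mitochondrial DNA, which all code for subunits of the oxidative phosphorylation complexes. Its ribosomal RNAs come from mitochondrial DNA, whereas all of its proteins are encoded in the nucleus, translated in the cytosol and imported. Some of these proteins have counterparts in bacteria and others, called mitochondria-specific below, do not.

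RNA sequencing was performed on A549 cells, an established human lung adenocarcinoma cell line, in 2 groups of 3 replicates. A549 Rec cells stably carried a human recoverin cDNA with a myc tag in a retroviral vector, A549 MOCK cells carried the empty vector, and both had been selected with puromycin. The labels speak of transfection with a plasmid and the methods of retroviral transduction. Both were grown in 2D culture in the same medium with methylcellulose for 6 days in the labels, or until Day 7 in the study's methods, and received no other treatment. The groups are a single cell line with recoverin driven by the vector, and no label says that the replicates were separate cultures, so that p-values below measure the spread between these libraries, which may be technical.

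The deposited values are TPM, in which reads are corrected for the length of the gene and each library sums to 1000000. Values of single libraries are given below in the order of replicates 1, 2 and 3 of a group. Genes of chromosome M, the mitochondrial DNA, took 13.6%, 15.7% and 34.5% of this sum in the MOCK libraries, and 17.3%, 13.3% and 26.9% in the Rec libraries. All levels below are therefore rescaled TPM, in which each library again sums to 1000000 after these genes were left out. Reads recovered from the TPM amounted to 15183471 to 18572137 per library. RCVRN, the recoverin gene, was at 0 in every A549 MOCK library and at 390, 390 and 464 rescaled TPM in A549 Rec, as the labels say. Of the epithelial markers, KRT8, KRT18 and CDH1 were at 166 rescaled TPM or more in every library, EPCAM was at 1.34 to 3.53 and KRT19 was below 1 in every library. Of 5 alveolar type II genes, SFTPB, SFTPC and NKX2-1 were below 1 in every library, SFTPD was at 1.04 to 3.502 and ABCA3 at 24.0 to 32.2. Of the markers of other cell types, 1 of 6 fibroblast genes passed the filter on low values used below (COL1A1, at 3.38 to 6.08), as did 1 of 4 leukocyte genes (CD14, at 6.93 to 8.48) and 0 of 3 endothelial genes, and COL1A2 and CD3E were at 0 in every library.

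Most mitoribosomal protein genes were expressed at a moderate and even level. The sum over all 78 was between 5949 and 6573 rescaled TPM in the 6 libraries. The median gene of the large subunit had a mean of 67.6 rescaled TPM and that of the small subunit 51.3. Among genes with a mean of at least 5 rescaled TPM, these medians were closer, at 71.4 for 47 large and 65.5 for 23 small subunit genes. Of the 78 genes, 71 had a mean of at least 5 rescaled TPM over the 6 libraries. Across the 6 libraries the coefficient of variation of these 71 genes had a median of 7.10%, and that of the 10111 tested genes in the same range of means had a median of 9.20%. The levels were not matched within that range, with a median of 67.6 rescaled TPM for the 71 genes and 34.0 for the 10111. The most even was MRPS35, a mitochondria-specific protein of the small subunit, with 250.9 to 258.8 rescaled TPM and a coefficient of variation of 1.03%. The least even was MRPL41 at 19.5%, whose values are given below.

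The small subunit genes were led by a few high ones and the large subunit genes were not. The highest of all was MRPS34, a mitochondria-specific protein of the small subunit, with 529.99, 500.4 and 425 rescaled TPM in the MOCK libraries and 552, 534 and 427 in the Rec libraries. MRPS26, also mitochondria-specific, followed with a mean of 286 and MRPS35 with 255. These 3 genes held 42.0% of the small subunit sum. In the large subunit the highest were MRPL51 with a mean of 232, MRPL15 with 212 and MRPL24 with 211, and together they held 17.1% of the large subunit sum. MRPL15 and MRPL24 have bacterial counterparts, and MRPL51 is mitochondria-specific. By origin, the median level was 74.97 rescaled TPM for the 31 large subunit genes with a bacterial counterpart and 60.5 for the 20 mitochondria-specific ones, and it was 65.5 for the 17 and 43.8 for the 9 small subunit genes in the same order. These medians include the genes of uncertain, very low level described below. Those of the large subunit are all mitochondria-specific, and those of the small subunit all have bacterial counterparts. The summed levels of the large and the small subunit genes stood at a ratio of 1.54 to 1.57 in all 6 libraries.

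**Figure D1:**
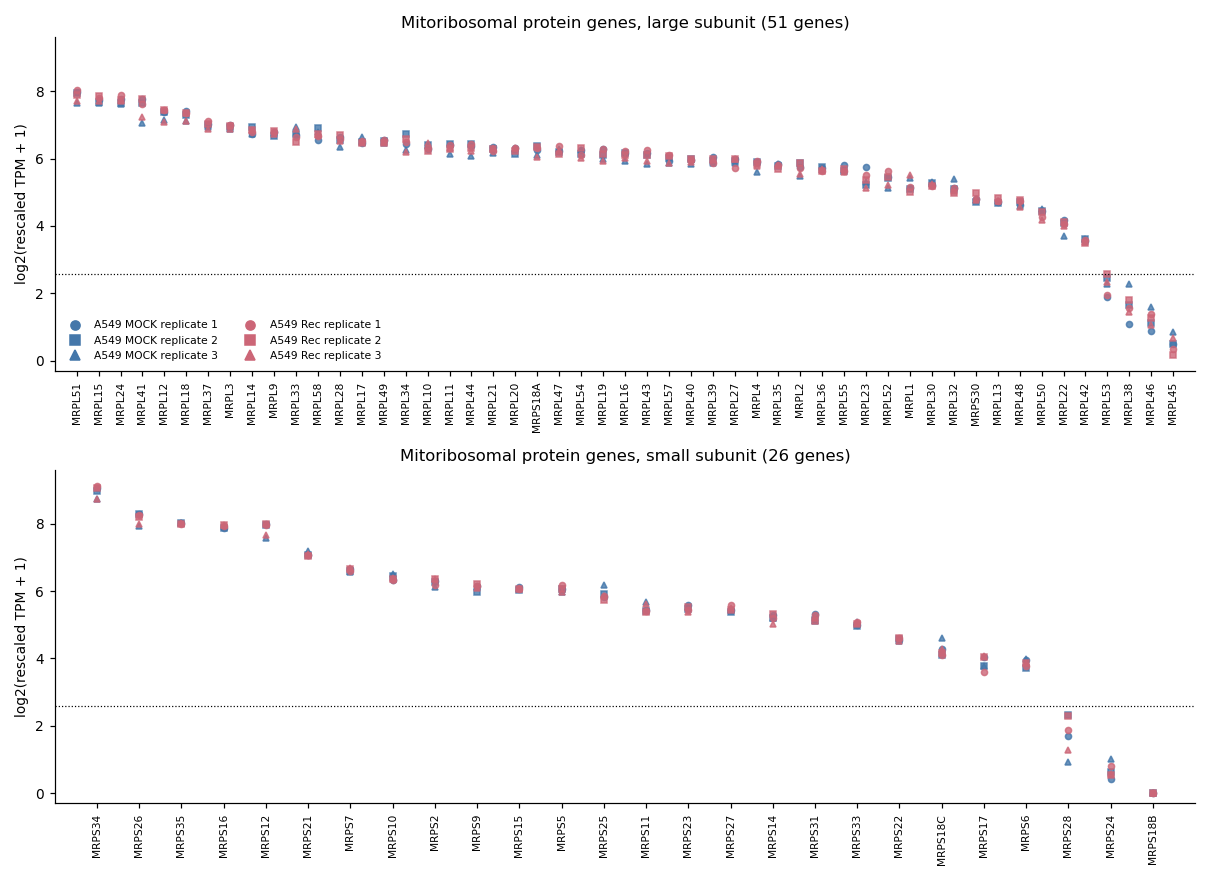
Level of each large subunit gene (top) and small subunit gene (bottom) in the 6 libraries, as log2(rescaled TPM + 1), with colour for the group and shape for the replicate. The dotted line marks 5 rescaled TPM, below which lie MRPL53, MRPL38, MRPL46, MRPL45, MRPS28, MRPS24 and MRPS18B, and MRPS34 lies highest with a mean of 495.

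A set of 7 genes stood far below the rest. These were MRPL53, MRPS28, MRPL38, MRPL46, MRPS24, MRPL45 and MRPS18B, each with a mean under 5 rescaled TPM, and the next gene up, MRPL42, had a mean of 10.8. They held 0 to 52 reads per library, against 99 to 3478 for the other 71 genes, whose median was 717.5 reads. MRPS18B, one of the 3 paralogs that descend from the bacterial S18 protein, had 0 reads in every library. Its paralogs did not share this level, as MRPS18A had a mean of 74.97 and MRPS18C of 18.3 rescaled TPM. MRPL45, which lies at the exit of the polypeptide tunnel, had 3, 3 and 5 reads in the MOCK libraries and 2, 1 and 4 in the Rec libraries. MRPS24 had 4, 6 and 10 reads in the MOCK libraries and 8, 6 and 5 in the Rec libraries. MRPL38, with 18 to 52 reads, and MRPL46, with 24 to 48, were also low in every library.

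Each of these 7 genes either shared most of its exon bases with another listed gene or had a copy on an alternate haplotype sequence. In 5 of them, more than 50% of the exon bases of the canonical transcript also belonged to another listed gene on the same strand. The share was 99.2% in MRPL53 with CCDC142, 94.3% in MRPL38 with AC087289.3, 90.9% in MRPS24 with the readthrough gene URGCP-MRPS24, 73.4% in MRPL46 with AC013489.1 and 56.2% in MRPS28 with AC036214.3. Of the other 71 genes, 64 shared no exon base with a listed gene on the same strand and 1 shared over 50%, namely MRPL12, with 69.5% in AC139530.2. MRPL12 nevertheless held 534 to 900 reads per library. The partner genes were themselves low, since URGCP-MRPS24, AC036214.3 and AC139530.2 were listed at 0 in every library and CCDC142 had a deposited TPM of 5.93 to 8.04.

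The remaining 2 low genes had such copies. MRPS18B, on chromosome 6 in the region of the major histocompatibility complex (30617709 to 30626395, GRCh38), had 6 copies on alternate haplotype sequences of the hg38 assembly, and MRPL45, on chromosome 17 (38297023 to 38323218), had 1. A copy was an alignment of at least 95% identity over at least 50% of the transcript. Among the other 71 genes only MRPS36 had such a copy on an alternate haplotype sequence, and it stood at a mean of 36.3 rescaled TPM. Elsewhere on the primary sequence, MRPL23, MRPL36, MRPS10 and MRPS36 had 1 copy each by the same measure, with means of 41.1, 50.3, 82.9 and 36.3 rescaled TPM, and none of the 7 low genes had one. PPP1R10, the neighbour that starts within 1000 bases of MRPS18B on the opposite strand, was also at 0 in every library. None of the 7 low genes had exon bases overlapped on the opposite strand only. Of the other 71 genes, 6 had over 25% of their exon bases overlapped on that strand only. These 6 had a median level of 65.3 rescaled TPM, against 67.6 over all 71, but the 71 had been chosen for a mean of at least 5. Their levels were unlike, as MRPS18C, at 83.6%, had a mean of 18.3 and MRPS22, at 26.6%, one of 22.7. MRPS34, at 32.6%, had 495, and MRPL4, MRPS18A and MRPL9 had 55.7 to 107. How reads in shared bases and reads with several matches were counted is not given in the sources used here, and their part in the low values was not tested. The levels of these 7 genes are therefore uncertain.

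**Figure D2:**
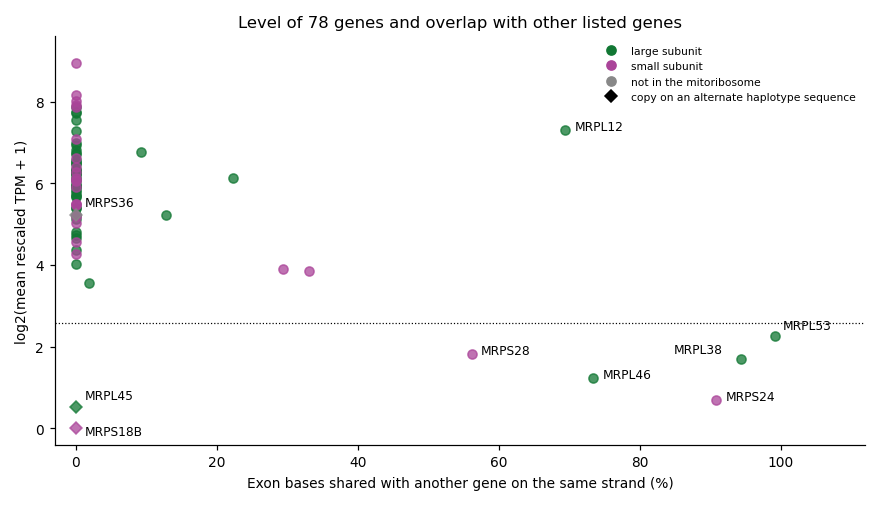
Mean level of the 78 genes over the 6 libraries, as log2(rescaled TPM + 1), against the share of canonical exon bases that another listed gene holds on the same strand. Diamonds mark genes with a copy on an alternate haplotype sequence. MRPL53, MRPL38, MRPS24, MRPL46 and MRPS28 lie at the lower right, MRPL12 lies high at 69.5%, and MRPL45 and MRPS18B lie low with no overlap.

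The study asked how recoverin changes A549 cells, and A549 Rec was accordingly compared with A549 MOCK. No tested mitoribosomal protein gene passed the test in this comparison. The test (limma on log2(rescaled TPM + 1), Benjamini-Hochberg adjustment over all tested genes) covered 17999 genes with at least 1 rescaled TPM in at least 3 libraries, among them 75 of the 78, all except MRPL45, MRPS18B and MRPS24. Of these 75, 0 had an adjusted p under 0.05, with or without a fold change of at least 2, and 0 had an unadjusted p under 0.05. Over all tested genes the adjusted p called 0.00556%, which was RCVRN alone, at a fold change over 2, and an unadjusted p under 0.05 was seen in 2.53%. With a different test (DESeq2) on read counts, the study reported many more genes in both directions at these limits. That RCVRN stood alone thus holds for the test used here. The smallest adjusted p of the 75 genes was 0.9995 (limma). This fit has no term for the replicate, so that the replicate 3 difference described below counts as spread within the groups. The test therefore has less power for genes that differed in replicate 3, and a fit with the replicate number as a block is given below.

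The differences were small on both sides. They ranged from -0.18 to 0.17 on the log2 scale, with a median of 0.02 for the 75 genes and -0.02 for all tested genes. The standard error of a difference had a median of 0.09 over the 71 genes with a mean of at least 5. The sign of the median depended on the libraries, as it was -0.03 without A549 MOCK replicate 3 and -0.02 without A549 Rec replicate 1. The large subunit genes had a median difference of 0.02, as had the small subunit genes. The large subunit sum was 3956, 3895 and 3592 rescaled TPM in the MOCK libraries and 3978, 3922 and 3636 in the Rec libraries, a mean of 3814 ± 195 against 3846 ± 183 (SD, n = 3). The small subunit sum was 2544, 2489 and 2326 in the MOCK libraries and 2553, 2531 and 2343 in the Rec libraries, a mean of 2453 ± 113 against 2476 ± 116 (SD, n = 3). The means differed by 0.823% and 0.927%, less than the spread between replicates, and the groups overlapped in both subunits. Within pairs of the same replicate number, the sum was higher in A549 Rec in 3 of 3 pairs for both subunits. This count rests on the numbering, since A549 Rec replicate 2 was below A549 MOCK replicate 1 in both sums. The pair differences were 22.7, 27.0 and 44.5 rescaled TPM for the large subunit, a mean of 31.4 ± 11.6 (SD, n = 3), and 8.72, 42.6 and 16.9 for the small subunit, a mean of 22.7 ± 17.7 (SD, n = 3).

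The lowest unadjusted p belonged to MRPL50, a mitochondria-specific protein of the large subunit. It had 20.7, 20.7 and 21.6 rescaled TPM in the MOCK libraries and 18.2, 20.3 and 17.1 in the Rec libraries. Every A549 Rec library was below every A549 MOCK library, with a log2 difference of -0.18 (SE 0.09, unadjusted p = 0.10, limma, and exact permutation p = 0.1, two-sided, the smallest that 3 against 3 allows). Besides MRPL50, 2 genes had groups that did not overlap, and both were higher in A549 Rec. MRPS16, with a bacterial counterpart, had 234, 235 and 237 in the MOCK libraries and 244, 246 and 248 in the Rec libraries, a log2 difference of 0.06. MRPS27, an RNA-binding protein of the pentatricopeptide repeat family, had 42.2, 40.8 and 42.0 in the MOCK libraries and 46.8, 42.5 and 44.1 in the Rec libraries, a log2 difference of 0.09. Groups that did not overlap were seen for 2.78% of all tested genes in the higher direction and for 3.88% in the lower direction, and these 2 and 1 of 75 genes are therefore close to or under the share among all genes.

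With the replicate number as a block, 1 of the 75 genes had an unadjusted p under 0.05, against 5.08% of all tested genes. This was MRPL24, a protein with a bacterial counterpart. Its values were 215, 198 and 196 rescaled TPM in A549 MOCK and 238, 212 and 209 in the Rec libraries, higher in A549 Rec in each pair of the same number, with a log2 difference of 0.11. Its unadjusted p was 0.165 without the block and 0.0286 with it, and its adjusted p with the block was 0.931 (limma). The other genes named by the smallest p were MRPL15 (log2 difference 0.08) and MRPS36 (0.15) in the higher direction, and MRPL32 (-0.17), MRPS25 (-0.16), MRPS10 (-0.07) and MRPS23 (-0.08) in the lower direction, and the groups overlapped in all 6. With 1 library left out, these 6 kept their sign and several moved by over 1.5 times, as MRPS36 lay between 0.08 and 0.25, MRPL15 between 0.04 and 0.12, MRPL32 between -0.23 and -0.07 and MRPS25 between -0.24 and -0.06, in the last 2 nearest to 0 without A549 MOCK replicate 3. MRPL58, a peptidyl-tRNA hydrolase built into the large subunit, had a log2 difference of -0.05. MRPL12, which forms the stalk to which translation factors bind, had one of 0.02, MRPL44, a protein with an RNase III fold, 0.03, and MRPS30 0.09.

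The replicate 3 libraries of both groups held the most RNA of mitochondrial DNA, and they were compared with replicates 1 and 2 with the group as a covariate. After the rescaling, the summed levels of the mitoribosomal protein genes were lower in both replicate 3 libraries than in the other 4. MT-RNR2, the 16S ribosomal RNA of the mitoribosome, had a deposited TPM of 14885, 17149 and 45069 in the MOCK libraries and of 18489, 14437 and 36642 in the Rec libraries, and MT-RNR1, the 12S ribosomal RNA, had 1955, 2236 and 4478 and 2191, 1835 and 4462. The libraries were prepared from poly(A) RNA, so that these values depend on how ribosomal RNA was carried over. Both RNAs are also part of the chromosome M share by which replicate 3 stood out, and their scale is not that of the protein genes. In rescaled TPM, the large subunit sum of the protein genes differed by -8.50% in replicate 3 of A549 MOCK and by -7.94% in replicate 3 of A549 Rec. The small subunit sum differed by -7.57% and -7.84%. In the sums of both subunits the 2 replicate 3 libraries were below the other 4. The small subunit sum fell from a mean of 2529 in replicates 1 and 2 to 2335 in replicate 3. MRPS34 fell from 529 to 426, MRPS26 from 305 to 247 and MRPS12 from 251 to 195, together more than the whole sum. Of the 24 tested small subunit genes, 13 had a log2 difference above 0 and 11 below. For the 50 large subunit genes these were 15 and 35. The sums were lower in replicate 3 under the deposited TPM and median-ratio scaling as well. However, both scalings by themselves lower replicate 3 against the rescaled TPM. The deposited TPM does so through the share of chromosome M. The median-ratio size factors were 1.07 and 1.01 in replicate 3 of A549 MOCK and A549 Rec, and 0.98 to 0.99 in the other libraries. These scalings are therefore no separate check.

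**Figure D3:**
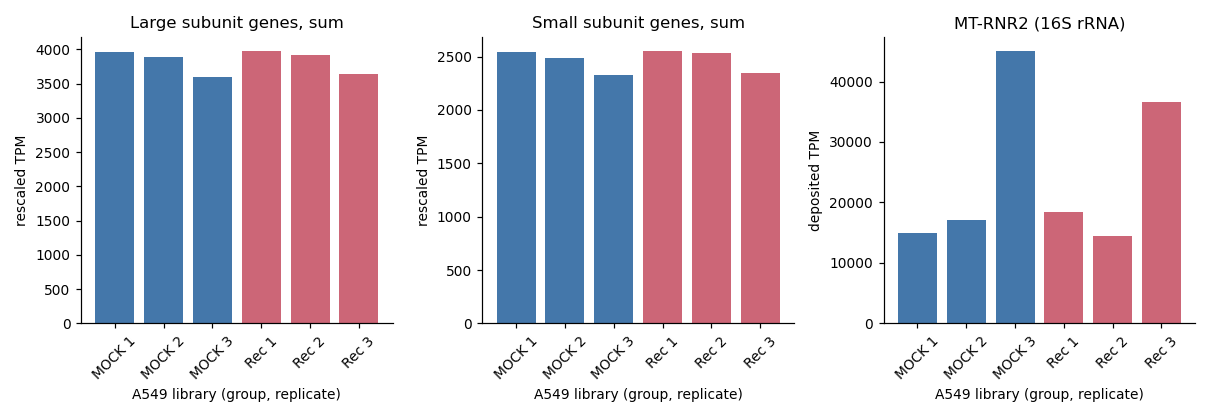
Summed rescaled TPM of the 51 large subunit genes and the 26 small subunit genes, and the deposited TPM of MT-RNR2, in each library. The sums were 3592 and 3636 (large) and 2326 and 2343 (small) in both replicate 3 libraries, below the other 4 libraries, in which MT-RNR2 was lower than in replicate 3.

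Of the 75 tested genes, 13 had an adjusted p under 0.05 for replicate 3 (limma), 10 of them lower and 3 higher, and 0 of them reached a fold change of 2. The share of all tested genes with an adjusted p under 0.05 was 9.72%, with 4.03% lower and 5.68% higher, and 0.772% of all tested genes reached a fold change of 2 as well. With an unadjusted p under 0.05 there were 27 members, against 30.7% of all tested genes, of which 22 were lower (against 10.9%) and 5 were higher (against 19.8%). The 10 lower genes were thus 13.3% of the members and the 3 higher genes were 4.00%. Without overlap between replicate 3 and the other libraries, 28 genes were lower and 5 were higher, against 14.4% and 26.9% of all tested genes. Of the 28 lower genes, 20 belonged to the 50 tested large subunit genes and 7 to the 24 tested small subunit genes, and MRPS36 was the other one. The median log2 difference was -0.06 for the large subunit genes and 0.00 for the small subunit genes, against 0.08 for all tested genes. Hence 65 of the 75 genes lay below the median of all tested genes. By the same measure the 83 cytosolic ribosomal protein genes had a median of -0.05, with 19 lower and 5 higher at an adjusted p under 0.05. Levels were not matched in these comparisons, with a median of 66.1 rescaled TPM for the 75 genes and 15.0 for all tested genes. How far the shares depend on the level was not tested.

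These calls depended on single libraries and on the processing. With 1 library left out, the count fell from 13 to 0 without any one of the A549 MOCK libraries or without A549 Rec replicate 2, to 2 without A549 Rec replicate 1 and to 5 without A549 Rec replicate 3. It was 0 with limma without an intensity trend, 15, all lower, with median-ratio scaling and 53, all lower, with the deposited TPM, in which the replicate 3 libraries are scaled down by the genes of chromosome M and the median of all tested genes is -0.19. Whether the replicate 3 difference itself differed between the groups could hardly be tested, since each group has 1 replicate 3 library and the spread comes from replicates 1 and 2 alone. In the interaction of replicate 3 with the group, 0 of the 75 genes had an adjusted or unadjusted p under 0.05 (limma), against 11.8% of all tested genes with an unadjusted p under 0.05 and 0.00556% with an adjusted one.

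**Figure D4:**
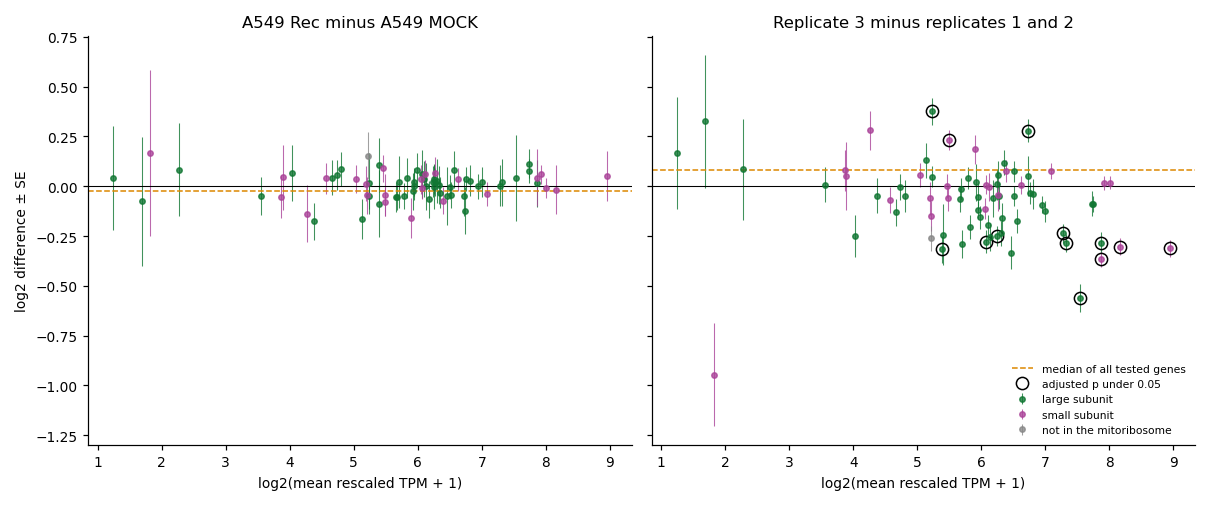
Log2 difference of the 75 tested genes with its standard error (limma) against the mean level, for A549 Rec minus A549 MOCK (left) and for replicate 3 minus replicates 1 and 2 (right). Circles mark the 13 genes with an adjusted p under 0.05, and the dashed line is the median of all tested genes, -0.02 at left and 0.08 at right. On the left the genes keep close to 0, and on the right most of those at high levels lie below the line.

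MRPS12, a protein of the decoding centre of the small subunit with a bacterial counterpart, had the smallest p. The gene (ENSG00000128626) lies on the plus strand of chromosome 19 from 38930548 to 38933162 (GRCh38). It had 251, 249 and 188 rescaled TPM in the MOCK libraries and 250.2, 255 and 201 in the Rec libraries. Both replicate 3 libraries were below the other 4, with a log2 difference of -0.37 (SE 0.04, adjusted p = 0.0122, limma). MRPL41, a mitochondria-specific protein of the large subunit, had the largest difference of the 13. It lies on the plus strand of chromosome 9 from 137551199 to 137552555. Its values were 218, 199.8 and 132 in the MOCK libraries and 196, 215 and 149 in the Rec libraries, with a log2 difference of -0.56 (SE 0.07, adjusted p = 0.0164, limma). MRPL41 thus fell to 0.677 times its level in the other libraries.

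The highest genes of the small subunit were among those that fell. MRPS34, on the minus strand of chromosome 16 from 1771890 to 1773155, whose values are given above, had a log2 difference of -0.31 (adjusted p = 0.0175, limma). MRPS26 had 311, 310.3 and 242 in the MOCK libraries and 305, 293 and 252 in the Rec libraries, a log2 difference of -0.30 (adjusted p = 0.0203, limma). MRPS35, in contrast, stood at 256, 256 and 256 in the MOCK libraries and 254, 251 and 259 in the Rec libraries, with a log2 difference of 0.02. MRPS16 also stayed within 234 to 248 rescaled TPM, with a log2 difference of 0.02, so that neighbours in the order of levels differed in their behaviour.

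MRPL12, which besides its role in the stalk has been described as a partner of the mitochondrial RNA polymerase POLRMT, was lower too. It had 165, 164 and 141 in the MOCK libraries and 171, 173 and 135 in the Rec libraries, with a log2 difference of -0.28 (adjusted p = 0.0235, limma). Both replicate 3 libraries were below the others. The remaining lower genes were MRPL51 (-0.28), MRPS18A (-0.25), MRPL18 (-0.24), MRPL52 (-0.32) and MRPL43 (-0.28), of which the last 3 were named after their values were seen. The adjusted p of these 5 lay between 0.0314 and 0.0440 (limma). MRPL51 had 251, 244 and 199 in the MOCK libraries and 259, 235 and 207 in the Rec libraries. MRPS18A had 75.7, 81.7 and 67.6 in the MOCK libraries and 79.2, 80.3 and 65.3 in the Rec libraries. In both genes, as in the other 3, the replicate 3 libraries were below all others. MRPS28, one of the 7 low genes, had a log2 difference of -0.95 on 6 to 36 reads per library, with an adjusted p of 0.0716 (limma). MRPL44 had a log2 difference of -0.24, MRPS30 of -0.05 and MRPL58 of 0.05, and none of these 4 passed the test.

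The higher genes were MRPL1, MRPL33 and MRPS11, all with bacterial counterparts, although with the deposited TPM MRPL33 and MRPS11 had differences of -0.016 and -0.058 and MRPL1 one of 0.09. None of the 3 passed with median-ratio scaling either, where the adjusted p was 0.0550 for MRPL1, 0.103 for MRPL33 and 0.101 for MRPS11 (limma), and MRPS11 did not pass with quantile normalization (adjusted p = 0.0764, limma). With any 1 library left out, none of the 3 passed. MRPL1, the protein of the mobile stalk beside the exit site for transfer RNA, is encoded on the plus strand of chromosome 4 from 77862520 to 77952790 and had 33.8, 33.2 and 42.2 rescaled TPM in A549 MOCK and 34.8, 31.3 and 44.8 in the Rec libraries. Its log2 difference was 0.38 (SE 0.07, adjusted p = 0.0309, limma), and both replicate 3 libraries were above the others. MRPL33 had 103, 105 and 121 in the MOCK libraries and 97.8, 88.1 and 117 in the Rec libraries, with a log2 difference of 0.28 (adjusted p = 0.0424, limma). MRPS11 had 42.0, 41.6 and 50.2 in the MOCK libraries and 41.8, 40.3 and 47.6 in the Rec libraries, with a log2 difference of 0.23 (adjusted p = 0.0456, limma). The next genes in this direction were MRPS18C (0.28) and MRPS25 (0.19), with adjusted p of 0.121 and 0.157 (limma). With the deposited TPM their differences were -0.0028 and -0.11, and with 1 library left out they lay between 0.14 and 0.42 and between 0.07 and 0.30, lowest without A549 MOCK replicate 3. MRPS18C had 18.3, 16.2 and 23.3 in the MOCK libraries and 16.3, 17.0 and 18.5 in the Rec libraries, and MRPS25, a mitochondria-specific protein, had 55.5, 59.8 and 71.1 and then 56.3, 52.4 and 57.1. The groups of libraries overlapped for MRPS25, whereas for MRPS18C they did not.

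**Figure D5:**
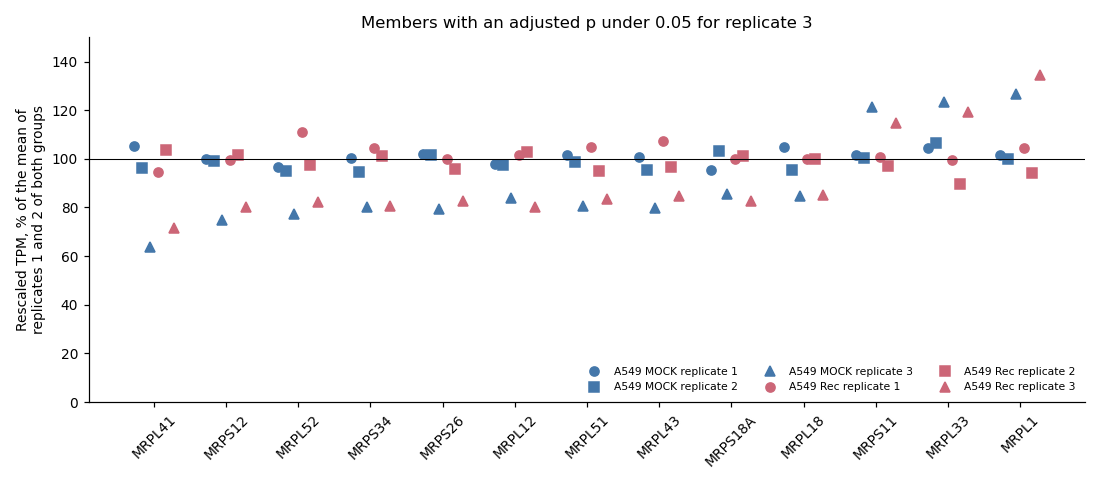
The 13 genes with an adjusted p under 0.05 for replicate 3, each library as a percentage of the mean rescaled TPM of replicates 1 and 2 of both groups. Triangles are the replicate 3 libraries, below the other 4 for MRPL41, MRPS12, MRPL52, MRPS34, MRPS26, MRPL12, MRPL51, MRPL43, MRPS18A and MRPL18 and above them for MRPS11, MRPL33 and MRPL1. With the deposited TPM the differences of MRPL33 and MRPS11 turn to -0.016 and -0.058.

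Among the 75 genes, the median replicate 3 difference was lower for transcripts of at least 55% GC, with little change below that. The 10 lower genes had a GC content of 45.7% to 66.7% in the canonical transcript, with a median of 58.5%, and the 3 higher genes had 36.9%, 41.3% and 50.4%. Over the 75 genes, Spearman's rho between GC content and the replicate 3 difference was -0.29, as a description across genes that share libraries. Over 17901 tested genes with a known transcript it was -0.14. The 18 genes with at least 55% GC had a median log2 difference of -0.22, the 31 between 45% and 55% had -0.01 and the 26 under 45% had -0.03, whereas over all tested genes these medians were 0.02, 0.08 and 0.11. The part of base composition and of the share of chromosome M in the replicate 3 difference was not tested. The study's methods name a pair of sequencing instruments and not which library ran on which, so that an instrument and a replicate cannot be told apart. In bulk RNA, a change in the share of cells in some state cannot be told apart from a change in RNA per cell.

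Proteins of the mitoribosome with other symbols, and genes that act with it, were examined beside the members in lists. None of them passed the test for A549 Rec against A549 MOCK. With an unadjusted p under 0.05 there was 1, MRM1, a methyltransferase of the 16S ribosomal RNA, which had 0.866, 0.518 and 2.35 rescaled TPM in A549 MOCK and 1.70, 8.29 and 8.95 in the Rec libraries, with overlapping groups. For replicate 3, 2 of the 5 mitoribosomal proteins with other symbols were lower. AURKAIP1, a small subunit protein, had 223, 241 and 166 in the MOCK libraries and 232, 237 and 182 in the Rec libraries (log2 difference -0.42, adjusted p = 0.0153, limma), and CHCHD1 had a log2 difference of -0.33 (adjusted p = 0.0403, limma). DAP3, PTCD3 and GADD45GIP1 did not pass, with 0.14, 0.19 and -0.15.

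The lists of factors that build and serve the mitoribosome held genes in both directions for replicate 3. Their counts stand beside the 5.68% of all tested genes that were higher and the 4.03% that were lower. Of 26 tested genes for assembly and ribosomal RNA modification, 3 were higher in replicate 3 and 0 were lower. These were METTL17 (log2 difference 0.38), a protein needed for small subunit assembly, the GTPase MTG2 (0.37) and MTERF3 (0.35). Of 19 aminoacyl-tRNA synthesis genes, 1 was higher, the cysteinyl-tRNA synthetase CARS2 (0.45). Of 16 translation factors and related proteins, 1 was lower, SLIRP (-0.45), which stabilises mitochondrial messenger RNA. Of 12 genes for transcription and maintenance of mitochondrial DNA, the exonuclease MGME1 (0.40) and the helicase TWNK (0.24) were higher, and the single-strand binding protein SSBP1 (-0.39) and POLRMT (-0.18, named after its values were seen) were lower. Of 11 nuclear regulators, MYC (0.57) and PPRC1 (0.33) were higher, and NRF1, GABPA and YY1 did not pass, with 0.23, -0.18 and -0.11.

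Many members start close to another gene on the opposite strand. Of the 78, 29 had a protein-coding neighbour in head-to-head orientation with a start within 1000 bases, or 37.2%, against 13.0% of 19909 nuclear protein-coding genes. The levels of such neighbours were far apart in some pairs and closer in others. MRPL41 and PNPLA7, with starts 665 bases apart, had means of 185 and 1.58 rescaled TPM, and MRPL18 and TCP1 had 155 and 199. MRPL46 and MRPS11 also form such a pair, with starts 34 bases apart, and had means of 1.36 and 43.9 rescaled TPM. The level of MRPL46 is uncertain, however, since it is among the low genes with shared exon bases. MRPL18 and the chaperonin gene TCP1 start 63 bases apart, and both had a log2 difference of -0.24 in replicate 3, with adjusted p of 0.0410 and 0.0244 (limma). MRPL43 and TWNK went in opposite directions, with -0.28 and 0.24 (adjusted p of 0.0440 and 0.0475, limma).

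The promoters were searched for 3 motifs on both strands, in the 250 bases before the start in RefSeq (GRCh38.p14), which were at hand for 70 of the 78 genes. The motif of ETS factors, to which GABPA belongs, was searched as CCGGAAG and found in 23 of the 70, or 32.9%, against 8.82% of all 27305 promoters and 11.98% of the 15432 protein-coding ones. The NRF1 motif, GCGCA and GCGC with any 1 base between them, was found in 8, or 11.4%, against 5.53% and 7.79%. The YY1 motif, AAGATGG, was found in 7, or 10.0%, against 3.77% and 3.32%. A CCGGAAG whose last bases also open AAGATGG would count for both. The 23 tested genes with the ETS motif had a median replicate 3 difference of -0.06 and the 44 without it had -0.05.

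The 150 bases before the start are shown for the genes that led the replicate 3 comparison, MRPS12, MRPS34, MRPS26 and MRPL41 among the lower and MRPL1 and MRPL33 among the higher ones, so that their unlike sequences can be set beside their differences. Each is written 5′ to 3′ on the strand of the gene, with the ETS motif on either strand (CCGGAAG or CTTCCGG) in capitals. The windows are chr19:38930794-38930943 on the plus strand, chr16:1773135-1773284 on the minus strand, chr20:3045902-3046051 on the plus strand, chr9:137551729-137551878 on the plus strand, chr4:77862680-77862829 on the plus strand and chr2:27771569-27771718 on the plus strand, in the same order. They lie before the starts in RefSeq, which are not the outermost starts in the deposited file, so that the windows overlap the gene spans of that file in part or, for MRPS12, MRPL41 and MRPL1, as a whole.
MRPS12: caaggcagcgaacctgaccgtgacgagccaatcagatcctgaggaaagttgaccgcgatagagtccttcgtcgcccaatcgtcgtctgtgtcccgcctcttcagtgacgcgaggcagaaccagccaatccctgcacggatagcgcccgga
MRPS34: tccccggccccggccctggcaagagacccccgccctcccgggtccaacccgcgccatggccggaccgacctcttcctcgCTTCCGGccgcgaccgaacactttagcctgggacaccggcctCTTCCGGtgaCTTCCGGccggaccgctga
MRPS26: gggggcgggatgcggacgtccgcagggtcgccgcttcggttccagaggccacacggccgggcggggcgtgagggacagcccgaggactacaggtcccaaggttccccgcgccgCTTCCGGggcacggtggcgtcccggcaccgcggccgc
MRPL41: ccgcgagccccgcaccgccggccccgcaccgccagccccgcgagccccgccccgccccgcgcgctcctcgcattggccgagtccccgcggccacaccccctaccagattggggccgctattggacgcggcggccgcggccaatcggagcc
MRPL1: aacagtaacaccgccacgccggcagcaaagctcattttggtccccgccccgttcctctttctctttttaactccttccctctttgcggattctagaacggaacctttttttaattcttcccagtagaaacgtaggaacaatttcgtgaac
MRPL33: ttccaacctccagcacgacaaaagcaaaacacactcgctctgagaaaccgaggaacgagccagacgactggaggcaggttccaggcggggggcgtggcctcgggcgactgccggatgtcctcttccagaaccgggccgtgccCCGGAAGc

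MRPS34 held 3 of these motifs within the 150 bases, MRPS26 and MRPL33 held 1 each, and MRPS12, MRPL41 and MRPL1 held none. Thus genes with and without the motif stood among both the lower and the higher ones, the latter as called with the rescaled TPM. MRPS12 also held the YY1 motif, farther from its start than the bases shown, and MRPL41 and MRPL1 held none of the 3 motifs in their 250 bases. A match is a description of the letters and not a binding site.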

How the data were processed

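RNA of A549 Rec and A549 MOCK cells in 2D culture was sequenced, with 3 libraries each. The labels name FastQC 0.11.7, Trimmomatic 0.38, HISAT2 2.1.0 and featureCounts 1.6.3. The methods name GRCh38, whose human gene coordinates the file holds, while the submitters' processing notes name a mouse build. The authors deposited TPM over all 58676 listed genes, with the 37 genes of chromosome M included. The annotation release and the strand setting of the counting are not given in the sources used here. All sample columns were matched to labels.

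TPM was rescaled to 1000000 per library without chromosome M. Limma 3.58.1 (R 4.3.3, lmFit and eBayes with trend) was applied to log2(TPM + 1) of the 17999 genes with a value of at least 1 in at least 3 libraries, with Benjamini-Hochberg adjustment. The pseudocount of 1 understates changes of low genes. The fits were tested on simulated data. Single genes were also tested by an exact permutation test, two-sided, which for 4 libraries against 2 cannot go below 0.133.

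Reads were recovered as the whole numbers behind the TPM, which was tested on simulated data too. Copies and overlaps came from GENCODE v44 canonical transcripts and minimap2 2.31 on hg38. Deviations of same-numbered libraries had a correlation of 0.102, 0.147 and 0.297 over all tested genes for numbers 1, 2 and 3, taken from the sample descriptions. Unlike numbers had 0.101 (MOCK 1 with Rec 2), 0.056 (MOCK 2 with Rec 1) and -0.20 to -0.13 where 1 library was a replicate 3. Over all tested genes only number 3 thus stood apart. Over the members, same numbers had 0.298, 0.600 and 0.574 for numbers 1, 2 and 3. Unlike numbers had 0.048 (MOCK 1 with Rec 2), 0.107 (MOCK 2 with Rec 1) and -0.56 to -0.26 where 1 library was a replicate 3. Whether libraries of the same number were prepared as pairs is not stated in the labels and was not tested. The replicate block is given where it changes a count. The titles of the replicate 3 libraries carry no number.

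Members were named by role, by level (3 highest and lowest per subunit) and by the 5 smallest p in each direction. The members, the replicate 3 split and the lists were chosen with earlier results of these data known. Alternatives were other scalings, a pseudocount of 0.1, no filter, no trend, the block and leaving out each library. Voom weights on recovered reads, and sums without the 7 low genes, were added after the data were seen.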

Additional observations from a re-analysis of the deposited data

How the results depend on the processing

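For A549 Rec against A549 MOCK, the count of 0 genes held under all 14 alternatives, the replicate block among them, also at an adjusted p under 0.05 alone. For replicate 3, the count at an adjusted p under 0.05 (13, of which 10 lower) was 53 (53 lower) with the deposited TPM, 5 (5 lower) without a filter on low values and 0 (0 lower) without a trend. It was 0 to 5, all lower, with 1 library left out, where a lone replicate 3 library is assumed to vary like the others, and the smaller number of libraries lowers the power. It was 15 (15 lower) with median-ratio scaling, 14 (12 lower) with quantile normalization, 13 (10 lower) with a pseudocount of 0.1 and 18 (15 lower) with voom weights. With the deposited TPM, 1 gene also passed the fold change of 2. The log2 ratio of the sums, replicate 3 over replicates 1 and 2, was -0.42 (large) and -0.41 (small) with the deposited TPM and -0.20 and -0.19 with median-ratio scaling. It was -0.13 to -0.11 and -0.12 to -0.11 with 1 library left out. MRPL33 and MRPS11 turned to -0.016 and -0.058 with the deposited TPM. The median of all tested genes was -0.19 with the deposited TPM, 0.01 with median-ratio scaling and -0.01 with quantile normalization. Below this median lay 65 of the 75 genes with the deposited TPM, 65 with median-ratio scaling and 57 with quantile normalization. The deposited TPM and median-ratio scaling multiply each library by a constant, which moves the members and the median alike. Their counts are therefore no separate check. Depth limits the 7 low genes, with at most 52 reads per library.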
